A study of Rattus norvegicus with 8 samples.

Results

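Described here are 10 genes of the endoplasmic reticulum (ER) stress response, Hspa5, Hsp90b1, Xbp1, Herpud1, Dnajb9, Dnajb11, Dnajc3, Sdf2l1, Creld2 and Pdia4, in rat abdominal aorta after perivascular FeCl3 or saline. They were taken from the deposited expression table by their symbols, which gave 10 of its 18090 genes. All 10 passed the filter on low values (4 or more of the 8 libraries with an FPKM of 1 or above), together with 11911 other genes. FPKM scales the mapped fragments of a gene by its length and by the library total, so that levels can be compared between genes per length. The FeCl3 group comprised 4 wild-type (WT) rat aortas against which filter paper with 10% iron chloride was held for 5 min. The saline group comprised 4 WT aortas that had filter paper with 0.9% saline for the same 5 min. Both groups were processed as polyA RNA in batch 1, and the submitters describe the samples as biologically independent. FeCl3 on the outside of a vessel is a standard way to provoke a thrombus, and the sources used here do not give the time from exposure to harvest. The design asks which transcripts differ between the thrombosed and the control vessel.

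The ER folds and disulfide-bonds secreted and membrane proteins. When unfolded proteins accumulate there, the sensors IRE1, PERK and ATF6 start the unfolded protein response: IRE1 splices the mRNA of the transcription factor XBP1, ATF6 is cleaved to release a transcription factor, and PERK slows translation and favours ATF4. XBP1 and ATF6 act on ER stress elements in the promoters of chaperone genes, which increases folding capacity and the disposal of misfolded proteins. In the arterial wall, smooth muscle cells and fibroblasts secrete collagen and other matrix proteins and depend on this machinery.

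The ER stress element (ERSE) is CCAAT, 9 bases of any kind, then CCACG, and its second form (ERSE-II) is ATTGG, 1 base of any kind, then CCACG. The promoter windows of all 10 genes were found by symbol in RefSeq for the build GRCr8, each covering 250 bases before to 50 bases after the gene start, and both strands were searched for exact letters. ERSE was in 5 of the 10 windows, those of Hspa5, Hsp90b1, Xbp1, Dnajc3 and Creld2, and in 22 of 33469 rat promoters (0.0657%). ERSE-II was in the windows of Herpud1 and Dnajb11 and in 17 of 33469 promoters (0.0508%). Each match is shown with 12 bases on either side, 5′ to 3′ on the strand of the gene. Capitals mark the outer parts of the element, which read CGTGG and ATTGG where it lies in reverse orientation.
Hspa5, chr3:38452961-38453003, plus strand, 43 to 25 bases before the start: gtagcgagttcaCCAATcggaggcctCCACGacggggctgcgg
Hsp90b1, chr7:23012439-23012481, minus strand, 176 to 158 bases before the start: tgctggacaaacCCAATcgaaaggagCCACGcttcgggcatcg
Hsp90b1, chr7:23012335-23012377, minus strand, 72 to 54 bases before the start: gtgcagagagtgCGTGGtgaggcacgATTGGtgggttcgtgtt
Xbp1, chr14:84604546-84604588, plus strand, 65 to 47 bases before the start: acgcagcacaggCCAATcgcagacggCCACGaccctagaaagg
Dnajc3, chr15:102432522-102432564, plus strand, 133 to 115 bases before the start: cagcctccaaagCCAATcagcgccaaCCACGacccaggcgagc
Creld2, chr7:121789227-121789269, plus strand, 145 to 127 bases before the start: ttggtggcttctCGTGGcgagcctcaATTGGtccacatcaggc
Herpud1, chr19:10614809-10614843, minus strand, 124 to 114 bases before the start: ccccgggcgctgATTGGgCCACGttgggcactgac
Dnajb11, chr11:91672788-91672822, minus strand, 10 bases before the start to the start itself: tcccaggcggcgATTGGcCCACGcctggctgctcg

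The window of Hspa5, the gene on which the element is classically described, is shown whole for context. It lies at chr3:38452766-38453065 on the plus strand of GRCr8, with the single exact ERSE match in capitals.
Hspa5 promoter: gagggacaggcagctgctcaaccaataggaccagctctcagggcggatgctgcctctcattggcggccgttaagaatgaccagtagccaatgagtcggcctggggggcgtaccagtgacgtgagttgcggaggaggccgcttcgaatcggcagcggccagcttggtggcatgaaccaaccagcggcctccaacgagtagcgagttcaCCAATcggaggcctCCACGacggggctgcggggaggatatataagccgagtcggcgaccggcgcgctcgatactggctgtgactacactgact

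Dnajb9, Sdf2l1 and Pdia4 had neither element in these windows. With 1 mismatch allowed, Pdia4 and Herpud1 joined the ERSE matches, 7 of 10 genes against 1.41% of all promoters. The XBP1 site TGACGTGG was in none of the 10 windows and in 0.595% of all promoters, the amino acid response core TTGCATCA was in that of Herpud1 alone and in 0.795%, and the heat shock element was in none and in 0.798%. A match is a description of letters, not of a bound site, and nothing follows about a factor from a window that holds none. By the annotation in the deposited table, all 10 genes carry the term endoplasmic reticulum, as 5.84% of its genes do. Of the 12 genes annotated to the ER chaperone complex, 5 are among them, namely Hspa5, Hsp90b1, Dnajb11, Sdf2l1 and Pdia4.

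None of the 10 genes passed the test between FeCl3 and saline aortas. Their log2 fold changes of FPKM + 1 ran from -0.59 for Hspa5 to 0.34 for Sdf2l1, with 7 negative and 3 positive. The test was limma on log2(FPKM + 1), two-sided, with Benjamini-Hochberg adjustment over 11921 genes and a threshold of 0.05, and the smallest adjusted p among the 10 genes was 0.333. At an unadjusted p under 0.05 the count was also 0 of 10, both in this test and with limma voom on recovered fragments. Among all genes tested, 0% passed the adjusted threshold and 16.6% had an unadjusted p under 0.05, while with voom 8.33% did so with higher and 4.68% with lower values after FeCl3. For 0 of the 10 genes were the 4 FeCl3 values all above or all below the 4 saline values, which was so for 9.81% of all genes tested (1.06% above and 8.75% below). The median log2 fold change was -0.24 over the 10 genes and -0.25 over all genes tested, of which 70.2% were negative.

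The size of this shift depended on the scale, and the libraries differed in haemoglobin mRNA, which enters the library total. Haemoglobin genes took 50.2% ± 12.2 of the summed FPKM in FeCl3 libraries and 15.2% ± 18.9 in saline libraries (SD, n = 4 each; exact two-sided permutation p = 0.0571, where 0.0286 is the smallest that 4 against 4 allows). Saline replicate 4, at 43.6%, lay within the FeCl3 range of 36.0% to 64.9%. Of the fragments, by whose total FPKM is scaled, haemoglobin took a smaller share. It was 23.8% ± 7.66 in FeCl3 libraries and 5.22% ± 7.49 in saline libraries (SD, n = 4 each). Median-of-ratios scaling moved the median of all genes to -0.04 and that of the 10 genes to -0.01. Rescaling to TPM, where every library sums to the same total, moved the median of all genes to -0.90 and that of the 10 genes to -0.95. On the TPM scale Hspa5 (-1.32, adjusted p = 0.0440) and Herpud1 (-1.27, adjusted p = 0.0470) passed the threshold as lower after FeCl3, as 27% of all genes did, while 0.545% passed as higher. There 6 of the 10 genes had an unadjusted p under 0.05, all with lower values, against 48.4% of all genes. Libraries held 24304434 to 30283292 fragments, and counting error was small beside the spread between aortas for all 10 genes. Acta2 and Myh11, which define smooth muscle, had 1304 to 4260 FPKM and 191 to 562 FPKM in FeCl3 aortas, against 1790 to 10404 FPKM and 457 to 1030 FPKM in saline aortas. In bulk tissue, fewer cells of a type and less RNA per cell cannot be told apart.

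**Figure D1:**
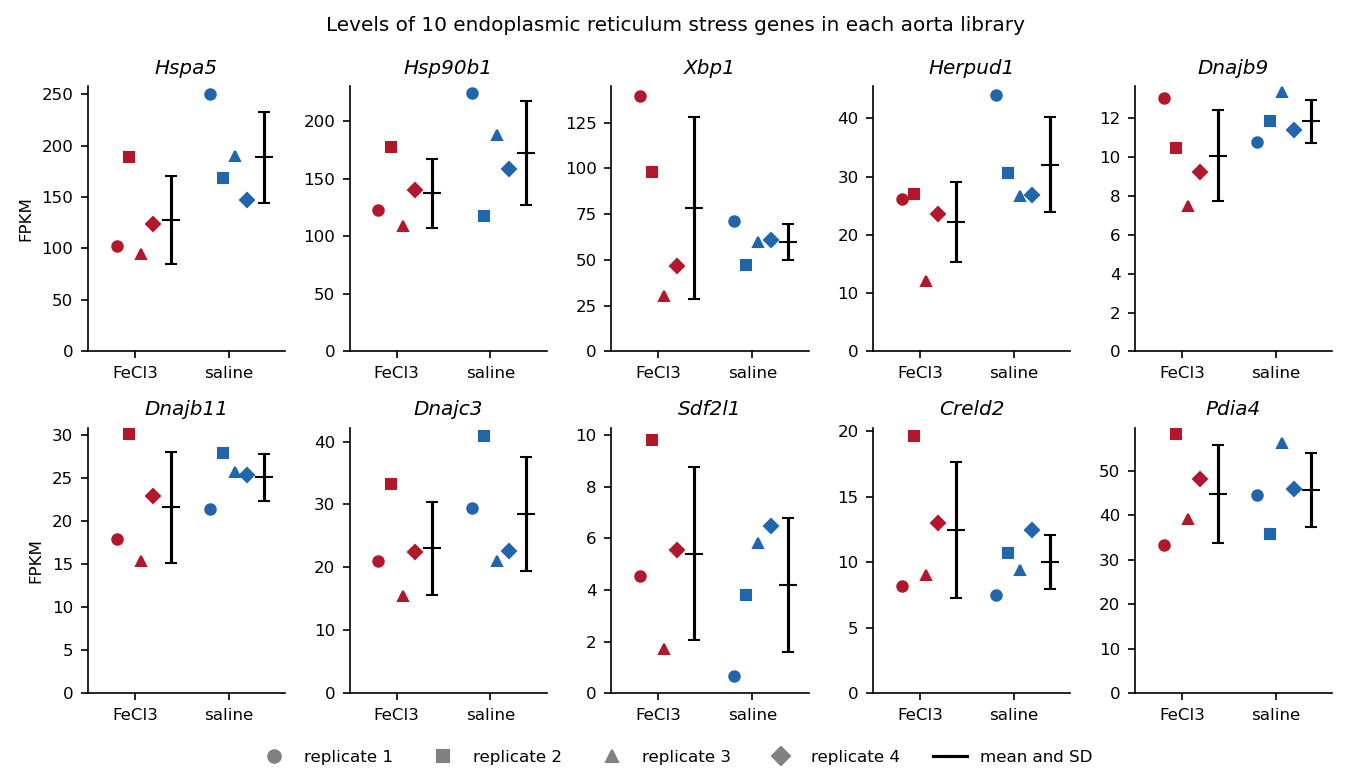
FPKM of each gene (vertical axis, from 0, own scale per panel) in the 4 FeCl3 and 4 saline aorta libraries, with marker shapes for replicates and bars for mean and SD. In every panel the FeCl3 and saline values overlap, and Xbp1 spreads from 30.4 to 139.6 FPKM after FeCl3 but only from 47.4 to 71.5 FPKM after saline.

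Xbp1, the transcription factor of the IRE1 branch, had the largest spread between aortas of the 10 genes after Sdf2l1, with a residual SD of 0.71 on the log2 scale. It had 139.6, 97.9, 30.4 and 46.7 FPKM in FeCl3 replicates 1 to 4, against 71.5, 47.4, 59.9 and 60.8 FPKM in saline replicates 1 to 4. As deposited, FeCl3 replicates 1 and 2 stood above every saline aorta, and FeCl3 replicates 3 and 4 stood below every one. FeCl3 replicate 4 and saline replicate 2 had overlapping 95% Poisson intervals (44.8 to 48.7 and 45.4 to 49.5 FPKM). After median-of-ratios scaling FeCl3 replicates 3 and 4 (41.1 and 46.4) were above saline replicate 2 (39.0). The log2 fold change of Xbp1 was 0.16 ± 0.45 (SE; adjusted p = 0.869), with a 95% interval of the fold from 0.550 to 2.29. The sign turned without FeCl3 replicate 1 (-0.19) or without FeCl3 replicate 2 (-0.018), and on the TPM scale (-0.57). Gene-level FPKM do not separate the spliced form of Xbp1 mRNA, which encodes the active factor, from the unspliced one.

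Markers of other cell types also differed between libraries and are given beside Xbp1. Plasma cells express XBP1 strongly, and markers of B cells and plasma cells summed over 12 genes to 104, 75.6, 152 and 136 FPKM in FeCl3 replicates 1 to 4, against 59.6, 113, 40.9 and 86.2 FPKM in saline replicates 1 to 4. A single gene, Sdc1, which other cells also express, made up most of that sum in saline replicates 1, 2 and 3 and had the opposite sign, with a log2 fold change of -0.86. Over the 11 genes without Sdc1 the sum was 93.0, 53.6, 108 and 102 FPKM in FeCl3 replicates 1 to 4, against 0.027, 23.6, 4.97 and 63.9 FPKM in saline replicates 1 to 4. Of 8 markers tested, 4 (Cd79a, Cd79b, Ms4a1 and Pou2af1) had an unadjusted p under 0.05, all with higher values after FeCl3, against a background of 4.42%. The list joins B cell and plasma cell genes and does not separate them. Nor was the rise particular to it: 11 of 11 T and NK cell, 9 of 11 erythroid and 8 of 11 platelet markers tested did the same. For macrophage and neutrophil markers it was 3 of 12. Fat markers summed over 8 genes to 10609, 11201, 438 and 2785 FPKM in FeCl3 replicates 1 to 4, against 2.48, 16635, 385 and 1880 FPKM in saline replicates 1 to 4. The part of either marker list in the Xbp1 values was not tested.

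Hspa5, which encodes BiP, the Hsp70 chaperone of the ER lumen that also holds the sensors inactive, had the most negative fold change. It had 103, 189, 94.7 and 123 FPKM in FeCl3 replicates 1 to 4, against 249.6, 169, 189.7 and 147 FPKM in saline replicates 1 to 4. FeCl3 replicates 1, 3 and 4 were below the lowest saline aorta, while FeCl3 replicate 2 lay among the saline values. The means were 127 ± 42.7 FPKM in FeCl3 aortas and 189 ± 44.2 FPKM in saline aortas (SD, n = 4 each). The log2 fold change was -0.59 ± 0.29 (SE; adjusted p = 0.333 in limma, with an unadjusted p of 0.0748), and the 95% interval of the fold ran from 0.421 to 1.05. Without FeCl3 replicate 2 it was -0.79 with an unadjusted p of 0.0164 and an adjusted p of 0.441 in limma, where 6.81% of all genes had an unadjusted p under 0.05 with lower values. It was smaller after median-of-ratios scaling (-0.35), with haemoglobin left out of the total (-0.27) and with haemoglobin as a covariate (-0.15), with adjusted p of 0.689, 0.692 and 1.00 in limma.

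Hsp90b1 encodes GRP94, the Hsp90 chaperone of the ER, which folds integrins and other clients. It had 122, 178, 109 and 140.2 FPKM in FeCl3 replicates 1 to 4, against 225, 117, 188 and 158 FPKM in saline replicates 1 to 4. Only FeCl3 replicate 3 lay below the saline range, and no FeCl3 aorta lay above it. The log2 fold change of -0.31 ± 0.28 (SE; adjusted p = 0.574) became 0.0069 when haemoglobin was left out of the library total. Saline replicate 1 had the highest Hspa5, Hsp90b1 and Herpud1 of all 8 libraries. That library also stood apart in the cytosolic heat shock genes: Hspa1b, the inducible Hsp70, had at most 6.21 FPKM in FeCl3 aortas, against 889.5 FPKM in saline replicate 1 and at most 5.69 FPKM in the other saline aortas. Without saline replicate 1 the log2 fold changes were -0.45 for Hspa5, -0.17 for Hsp90b1 and -0.38 for Herpud1, all with the same sign.

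The J-domain proteins hand clients to BiP and stimulate its ATPase. Dnajb9 (ERdj4), which also brings BiP to IRE1 and is a classic XBP1 target, had 13.05, 10.5, 7.46 and 9.25 FPKM in FeCl3 replicates 1 to 4, against 10.8, 11.8, 13.4 and 11.4 FPKM in saline replicates 1 to 4. It was the steadiest of the 10 genes, with a residual SD of 0.23 on the log2 scale, lower than in all but 9.61% of genes tested. FeCl3 replicates 2, 3 and 4 lay below the saline range and FeCl3 replicate 1 lay inside it. After median-of-ratios scaling only FeCl3 replicate 4 was below that range. The log2 fold change was -0.24 ± 0.21 (SE; adjusted p = 0.582), and the 95% interval of the fold from 0.606 to 1.19 was the narrowest among the J-domain genes.

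Dnajb11 (ERdj3), which binds unfolded clients directly, had 18.0, 30.1, 15.4 and 23.0 FPKM in FeCl3 replicates 1 to 4, against 21.4, 27.9, 25.7 and 25.4 FPKM in saline replicates 1 to 4. FeCl3 replicate 2 was the highest of all 8 libraries, and FeCl3 replicates 1 and 3 were the lowest. Dnajc3 (p58IPK), which in addition restrains PERK, had 21.0, 33.2, 15.4 and 22.4 FPKM in FeCl3 replicates 1 to 4, against 29.5, 40.9, 21.0 and 22.6 FPKM in saline replicates 1 to 4. Its groups overlapped widely, with FeCl3 replicate 3 alone below the saline range. The log2 fold changes were -0.24 ± 0.24 for Dnajb11 and -0.30 ± 0.30 for Dnajc3 (SE; adjusted p = 0.618 and 0.620).

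Sdf2l1, a partner of ERdj3 in chaperone complexes, had the lowest level and the widest spread of the 10 genes. It had 4.55, 9.82, 1.71 and 5.56 FPKM in FeCl3 replicates 1 to 4, against 0.683, 3.83, 5.82 and 6.46 FPKM in saline replicates 1 to 4. Saline replicate 1 rested on 22 fragments, with a 95% Poisson interval of 0.428 to 1.03 FPKM that covers counting error only, and it was the lowest of all libraries. FeCl3 replicate 2 was the highest. The log2 fold change of 0.34 ± 0.56 (SE; adjusted p = 0.768) had a 95% interval of the fold from 0.525 to 3.06, and it was -0.13 without saline replicate 1 and -0.20 on the TPM scale.

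Pdia4 (ERp72), a disulfide isomerase, had 33.3, 58.4, 39.2 and 48.2 FPKM in FeCl3 replicates 1 to 4, against 44.6, 35.9, 56.2 and 45.9 FPKM in saline replicates 1 to 4. The ranges were nearly the same, and the log2 fold change of -0.042 ± 0.24 (SE; adjusted p = 0.938) was the closest to 0 of the 10 genes, although median-of-ratios scaling gave 0.19. Creld2, a cysteine-rich ER protein induced by ER stress, had 8.22, 19.6, 9.05 and 12.95 FPKM in FeCl3 replicates 1 to 4, against 7.52, 10.7, 9.43 and 12.4 FPKM in saline replicates 1 to 4. FeCl3 replicate 2 stood well above all other libraries. The log2 fold change was 0.23 ± 0.30 (SE; adjusted p = 0.697), 0.46 after median-of-ratios scaling and -0.45 on the TPM scale. Without FeCl3 replicate 2 it was 0.0033.

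Herpud1 encodes HERP, a membrane protein that organises the ubiquitin ligase of ER-associated degradation. It had 26.1, 27.1, 12.03 and 23.6 FPKM in FeCl3 replicates 1 to 4, against 43.9, 30.7, 26.7 and 26.8 FPKM in saline replicates 1 to 4. FeCl3 replicates 1, 3 and 4 were below the lowest saline aorta, and FeCl3 replicate 2 was just inside the range. After median-of-ratios scaling only FeCl3 replicate 3 was below every saline aorta. The log2 fold change was -0.54 ± 0.30 (SE; adjusted p = 0.383), the second most negative, and -0.29 without FeCl3 replicate 3.

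By mean FPKM, FeCl3 aortas held Hsp90b1 and Hspa5 first (137 ± 29.8 and 127 ± 42.7), then Xbp1 (78.6 ± 49.7), Pdia4 (44.8 ± 11.0), Dnajc3 (23.0 ± 7.45), Herpud1 (22.2 ± 6.94), Dnajb11 (21.6 ± 6.46), Creld2 (12.5 ± 5.19), Dnajb9 (10.1 ± 2.34) and Sdf2l1 (5.41 ± 3.36). In saline aortas Hspa5 came first (189 ± 44.2), then Hsp90b1 (172 ± 45.4), Xbp1 (59.9 ± 9.86), Pdia4 (45.7 ± 8.32), Herpud1 (32.0 ± 8.15), Dnajc3 (28.5 ± 9.05), Dnajb11 (25.1 ± 2.71), Dnajb9 (11.8 ± 1.11), Creld2 (10.0 ± 2.08) and Sdf2l1 (4.198 ± 2.60; SD, n = 4 each). Neighbours in this order whose values did not overlap were Pdia4 and Dnajc3 in FeCl3 aortas, and Hsp90b1 and Xbp1, Dnajb11 and Dnajb9, and Creld2 and Sdf2l1 in saline aortas. The FeCl3 pair was nearly tied, with Pdia4 at 33.255 FPKM in replicate 1 and Dnajc3 at 33.215 FPKM in replicate 2. Their 95% Poisson intervals overlapped, as did those of Creld2 in saline replicate 1 and Sdf2l1 in saline replicate 4. All other neighbours, Xbp1 and Pdia4 among them, overlapped between aortas. Within each library, however, Xbp1 exceeded Pdia4 and Pdia4 exceeded Herpud1 in every saline aorta. Likewise, Dnajb11 exceeded Creld2 and Dnajb9 exceeded Sdf2l1 in every FeCl3 aorta. The remaining overlapping neighbours changed order from library to library. Hspa5 ranked above at least 95.1% of the genes tested in every library, whereas Sdf2l1 ranged from the 14.5th to the 60.1st percentile.

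Several genes were high or low in the same libraries. FeCl3 replicate 2 was the highest of the FeCl3 group in 8 of 10 genes, and the highest of all 8 libraries for Dnajb11, Sdf2l1, Creld2 and Pdia4. FeCl3 replicate 3 was the lowest of all libraries in 7 of 10 genes, and in 1 after median-of-ratios scaling. It also had the largest haemoglobin share, 34.1% of fragments. Saline replicate 1 split the genes: it was the highest of all libraries for Hspa5, Hsp90b1 and Herpud1 and the lowest for Sdf2l1 and Creld2. Endothelial markers, summed over 10 genes, gave 211 to 292 FPKM in FeCl3 aortas, against 26.4 FPKM in saline replicate 1 and 127 to 307 FPKM in the other saline aortas. The part of these library differences in the values above was not tested.

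**Figure D2:**
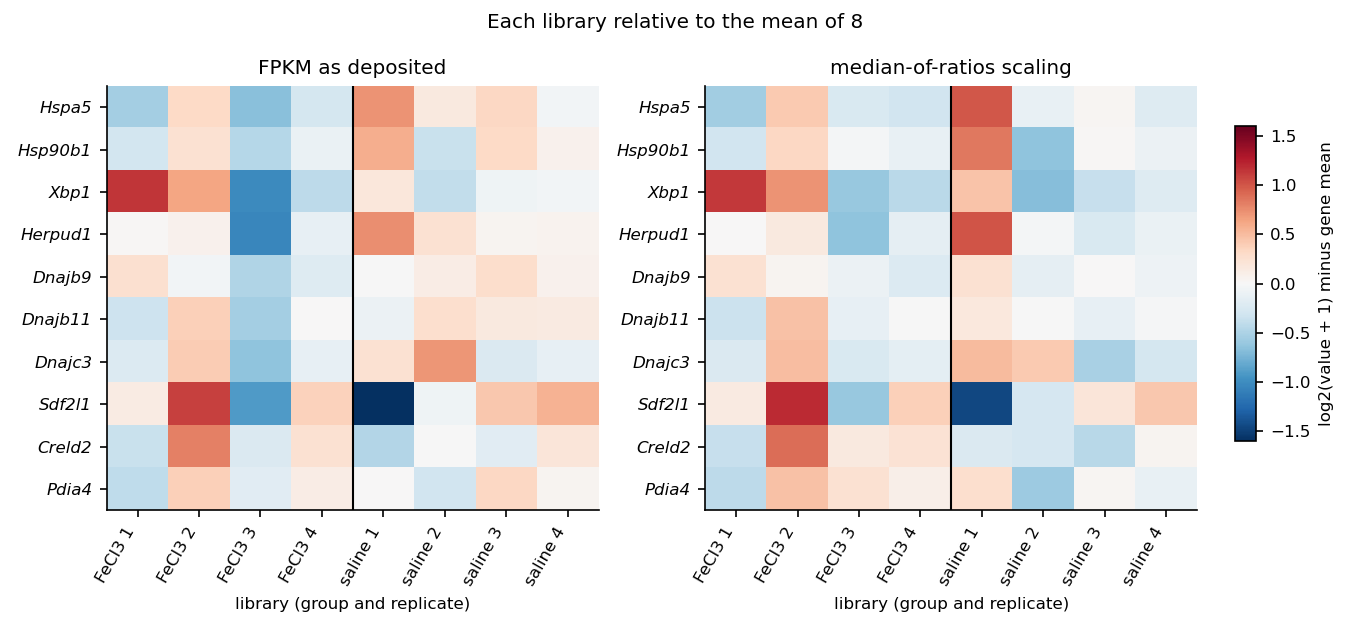
Colour gives log2(value + 1) of each gene (vertical axis) in each library (horizontal axis, FeCl3 libraries left of the line, saline libraries right of it) minus the gene's mean over 8 libraries, for FPKM as deposited and after median-of-ratios scaling. FeCl3 replicate 3 is lowest in 7 genes on the left and in 1 on the right, and Sdf2l1 is lowest in saline replicate 1 on both.

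**Figure D3:**
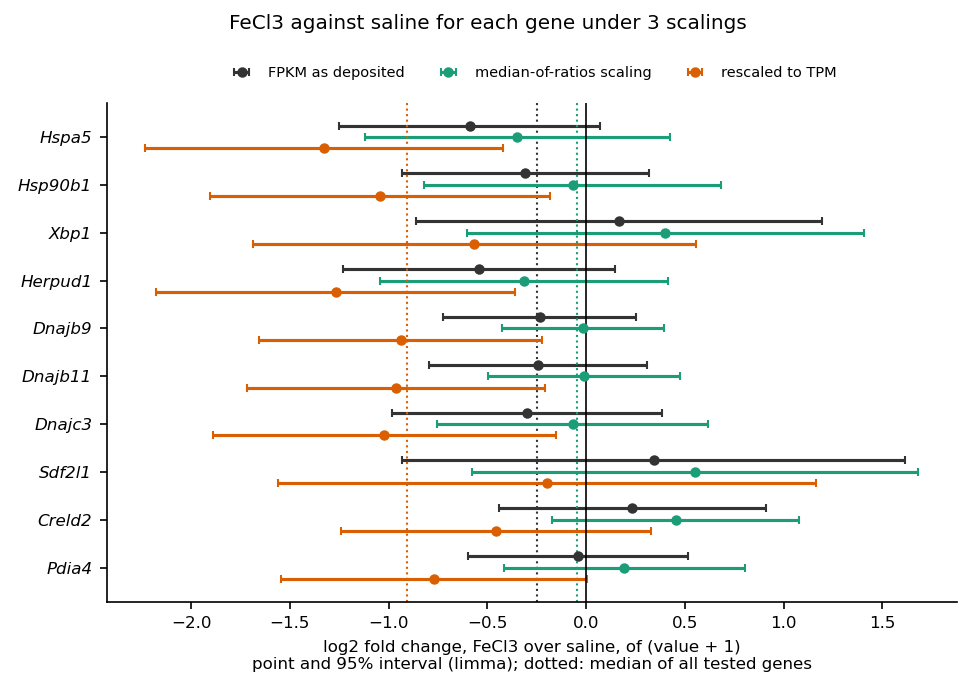
Log2 fold change of FeCl3 over saline for each gene, as points with 95% intervals from limma, on 3 scales: FPKM as deposited, median-of-ratios scaling and TPM. Dotted lines mark the median of all genes tested, -0.25, -0.04 and -0.90, and the 10 genes move with that median from scale to scale.

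A ratio of 2 FPKM values within a library does not depend on the library total, so each gene was also expressed as a percent of Hspa5. The log2 differences of the ratios and their tests used FPKM + 1 for both genes. They are therefore not the log2 of the percents and not fully free of the library total, above all for low genes such as Sdf2l1. All 9 log2 differences of these ratios were positive, a direction that the denominator fixes because Hspa5 had the most negative fold change of the 10 genes. Of the 9, 0 had an exact two-sided permutation p under 0.05. Creld2 was 8.00%, 10.4%, 9.56% and 10.5% of Hspa5 in FeCl3 replicates 1 to 4, against 3.01%, 6.34%, 4.97% and 8.48% in saline replicates 1 to 4. FeCl3 replicates 2, 3 and 4 lay above every saline aorta. The difference was 0.82 on the log2 scale (exact permutation p = 0.0571, adjusted p = 0.257 over 9 ratios). Pdia4 was 32.4%, 30.9%, 41.3% and 39.1% of Hspa5 in FeCl3 replicates 1 to 4, against 17.9%, 21.3%, 29.6% and 31.3% in saline replicates 1 to 4, a log2 difference of 0.55 with the same exact permutation p and adjusted p. FeCl3 replicates 1, 3 and 4 exceeded all saline aortas, and the ranges overlapped through FeCl3 replicate 2.

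Among the other ratios, Sdf2l1 to Hspa5 had a log2 difference of 0.93 (exact permutation p = 0.2), Xbp1 to Hspa5 0.75 and Hsp90b1 to Hspa5 0.28 (exact permutation p = 0.114 for both). The J-domain genes lay between 0.29 for Dnajc3 and 0.35 for Dnajb9 and Dnajb11. Herpud1 was 25.4%, 14.3%, 12.7% and 19.1% of Hspa5 in FeCl3 replicates 1 to 4, against 17.6%, 18.2%, 14.1% and 18.2% in saline replicates 1 to 4. The means were close, 17.9% ± 5.70 in FeCl3 aortas and 17.0% ± 1.97 in saline aortas (SD, n = 4 each), but the FeCl3 values lay on both sides of the saline range (log2 difference 0.046, exact permutation p = 0.771). With Hsp90b1 as the denominator, an alternative chosen after seeing the data, 2 of 9 differences were negative (Hspa5 and Herpud1), and the difference was 0.54 for Creld2 (exact permutation p = 0.171) and 0.27 for Pdia4 (exact permutation p = 0.143). Without saline replicate 1 the differences to Hspa5 were 0.56 for Creld2 and 0.40 for Pdia4 (exact permutation p = 0.114 for both, where 4 against 3 samples were compared).

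**Figure D4:**
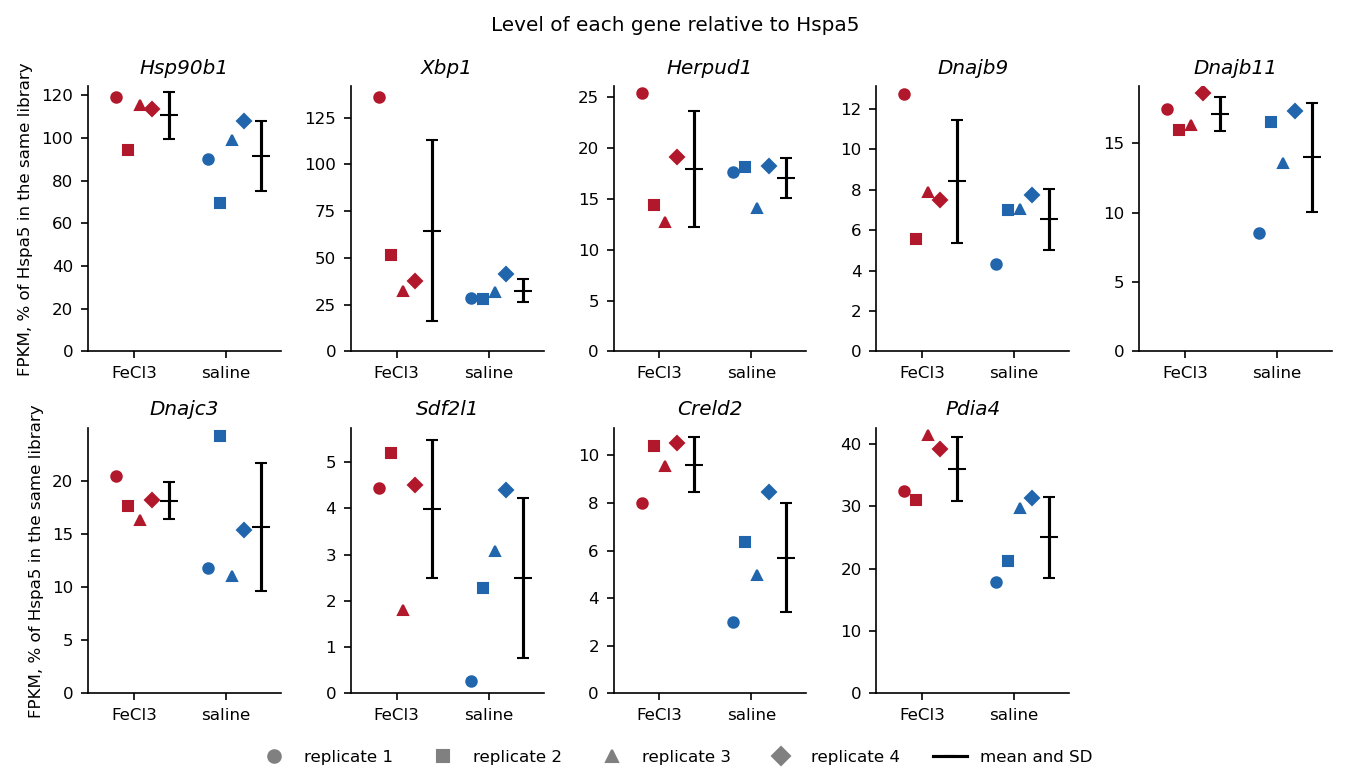
FPKM of 9 genes as a percent of Hspa5 FPKM in the same library (vertical axis, from 0, own scale per panel), with FeCl3 left and saline right, marker shapes for replicates and bars for mean and SD. Creld2 averages 9.61% of Hspa5 after FeCl3 and 5.70% after saline, and the groups overlap in all 9 panels.

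Grouped by promoter element, the 5 genes with ERSE had log2 fold changes from -0.59 to 0.23 with a median of -0.30. Herpud1 and Dnajb11 with ERSE-II had -0.54 and -0.24, and the 3 genes with neither ran from -0.24 to 0.34 with a median of -0.042. The ranges of the groups overlap, and the ERSE genes include both signs. Over the 8 libraries, the genes outside the lists whose log2 levels followed the mean standardised level of the 10 genes most closely were Vstm4 (r = 0.97), Atg5 (r = 0.95), Ptma (r = 0.95), Cdk2ap1 (r = 0.93) and Pros1 (r = 0.93; Pearson, with Spearman rho from 0.81 to 0.95). These correlations are a description over 8 libraries, which differ in depth and haemoglobin load. They are the highest among all genes tested outside the lists, so the selection itself makes them high. The 10 genes themselves followed their mean less closely, from r = 0.52 for Sdf2l1 and Creld2 to r = 0.89 for Dnajb11.

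The rest of the pathway was read from 8 lists of ER and heat shock genes, 129 of them tested, and 0 passed the adjusted threshold. At an unadjusted p under 0.05, 1 had higher and 27 had lower values after FeCl3, against 4.42% and 12.2% of all genes tested, and the median log2 fold change was -0.38, against -0.25 for all genes. In 29 of 129 (22.5%) all FeCl3 values were below all saline values, against 8.75% of all genes. After median-of-ratios scaling that count was 8 (6.20%), against 3.62% of all genes.

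All 10 sensors and transducers tested were negative, as 70.2% of all genes were, and their median was -0.40 (-0.19 after median-of-ratios scaling). Of them, 3 had an unadjusted p under 0.05 with lower values, against 12.2% of all genes. Atf6, the membrane-bound sensor, had 7.23, 8.57, 6.30 and 9.87 FPKM in FeCl3 replicates 1 to 4, against 18.6, 12.4, 13.4 and 13.04 FPKM in saline replicates 1 to 4. Every FeCl3 aorta was below every saline aorta, at -0.77 ± 0.22 on the log2 scale (SE; adjusted p = 0.245 in limma, with an unadjusted p of 0.00722). Ern1, which encodes IRE1, had 2.54, 1.70, 1.91 and 2.66 FPKM in FeCl3 replicates 1 to 4, against 4.34, 3.91, 4.00 and 3.71 FPKM in saline replicates 1 to 4. The groups did not overlap there either (-0.65 ± 0.20 SE; adjusted p = 0.245 in limma, with an unadjusted p of 0.00941), nor after median-of-ratios scaling for these 2 genes, whose log2 fold changes were then -0.56 and -0.48. Creb3, a related transcription factor, had -0.73, while Eif2ak3, which encodes PERK, had -0.069 ± 0.29 (SE; adjusted p = 0.915).

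Of 10 PERK and ATF4 genes tested, 0 had an unadjusted p under 0.05, against 16.6% of all genes, and their median was -0.15. Atf4 had a log2 fold change of -0.34, and Ddit3, which encodes the pro-apoptotic factor CHOP, -0.11 ± 0.25 (SE; adjusted p = 0.842). The most abundant gene of this list was Nupr1 (-0.093), and its smallest p-values were those of Vldlr (-0.74) and Sesn2 (-0.70). Among 21 other ER chaperones and disulfide enzymes the median was -0.32. An unadjusted p under 0.05 was reached by 3, all negative, a share near the 12.2% of all genes with lower values. Hyou1, a large chaperone that exchanges nucleotide on BiP, had 10.1, 10.5, 9.17 and 14.3 FPKM in FeCl3 replicates 1 to 4, against 18.0, 32.6, 24.8 and 18.2 FPKM in saline replicates 1 to 4. All FeCl3 aortas were below all saline aortas, and the log2 fold change was -0.998 ± 0.25 (SE; adjusted p = 0.245 in limma, with an unadjusted p of 0.00367; -0.77 after median-of-ratios scaling). Calr, the most abundant of them, averaged 253 FPKM in FeCl3 aortas and 267 FPKM in saline aortas, with a log2 fold change of -0.088. Txndc11 (-0.78), Manf (-0.20), P4hb (-0.33) and Canx (-0.45) were also negative and did not pass the test.

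The ER-associated degradation list had a median of -0.33 over 19 genes. Of these, 5 had an unadjusted p under 0.05, all negative, against 12.2% of all genes with lower values. Nploc4 and Edem3 (-1.03 each) were among the 5, while the most abundant gene of the list, Selenok, had 0.24. Derl3 was below 1 FPKM in all 8 libraries and was not tested. For 23 genes of ER to Golgi transport the median was -0.39, with 6 at an unadjusted p under 0.05, all negative, against the same 12.2%. Sec24c (-0.79) and Sec16a (-0.78) were among the 6, and the most abundant gene, Tmed2, had -0.047. The 13 genes that fold collagen in the ER had a median of -0.53, with 4 at an unadjusted p under 0.05, all negative, again against 12.2%. Plod1 (-0.98) and Mia3 (-0.83) were among these 4. Serpinh1, the collagen chaperone, had 149, 412, 274 and 289 FPKM in FeCl3 replicates 1 to 4, against 1028, 223, 383 and 375 FPKM in saline replicates 1 to 4, and only FeCl3 replicate 1 was outside the saline range.

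The 20 genes of the translocon and signal peptidase had a median of -0.062. At an unadjusted p under 0.05, 1 had higher and 3 had lower values, against 4.42% and 12.2% of all genes. Srpra (-0.55) was among the lower. Sec61g, the small translocon subunit, had 513, 886, 794 and 513 FPKM in FeCl3 replicates 1 to 4, against 141, 201, 195 and 523 FPKM in saline replicates 1 to 4. Saline replicate 4, the haemoglobin-rich saline library, was as high as the lower FeCl3 aortas, and the log2 fold change was 1.496 ± 0.43 (SE; adjusted p = 0.245). Without saline replicate 4 it was 1.89 and passed (adjusted p = 0.0418), as 1.26% of all genes then did with higher values. The 13 cytosolic heat shock genes were all negative, with a median of -1.25 (-1.01 after median-of-ratios scaling). An unadjusted p under 0.05 was reached by 3, Hsp90ab1 (-1.24) and Hspa4 (-0.96) among them, against 12.2% of all genes with lower values. Saline replicate 1 carried much of this: the summed level of the list was 1133 to 1748 FPKM in FeCl3 aortas, against 21544 FPKM in saline replicate 1 and 1727 to 2913 FPKM in the other saline aortas. Without that library the median was -0.60, with Hsp90ab1 at -0.86, Hspa4 at -0.60, Hspb1 at -0.36 and Hspa1b at -0.044, and 2 genes had an unadjusted p under 0.05, against 15% of all genes with lower values. Without saline replicate 4 the count was 7, against 10.9% of all genes. Hspb1, the most abundant of them, had 193, 168, 205 and 187 FPKM in FeCl3 replicates 1 to 4, against 10156, 172, 291 and 283 FPKM in saline replicates 1 to 4.

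**Figure D5:**
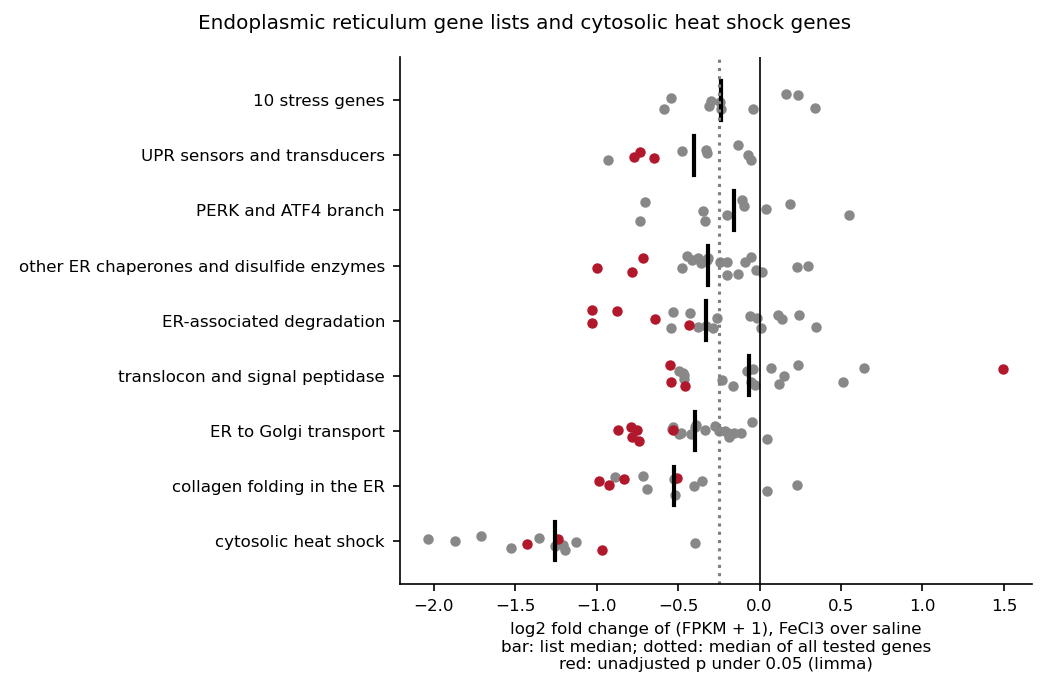
Log2 fold change of FPKM + 1, FeCl3 over saline, of each gene tested (points) in the 10 stress genes and 8 further lists, with a bar at the list median, red for an unadjusted p under 0.05 in limma and a dotted line at the median of all genes, -0.25. The 10 stress genes have no red point and a median of -0.24, and the cytosolic heat shock genes lie farthest left with a median of -1.25.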

How the data were processed

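Libraries of polyA RNA from the mirVana kit were prepared with the VAHTS Universal V6 kit, per the labels' protocols. The authors deposited their values as FPKM for each gene in each library. The tools fastp, HISAT2 and HTSeq and the build mRatBN7.2 are named per the submitters' processing notes. Tool versions and the annotation are not given in the sources used here. Each library's fragment total was recovered from the steps of low FPKM values. Whole fragments came out for 100% of 18090 genes within 0.02, and their sums reached at least 99.9% of each total. The count of 1 gene, Hbb, was doubled. In 28 pairs of libraries at most 1.31% of genes shared a count, so no library was a copy of another's values. This check would not show a sample that was sequenced again. The pair with the most shared counts, FeCl3 replicate 1 and saline replicate 4, also had the highest correlation of log2(FPKM + 1) (r = 0.969).

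The main test was limma 3.58.1 in R 4.3.3 with a trend on log2(FPKM + 1), a scale that understates changes of low genes. Exact two-sided permutation tests served for ratios and for the haemoglobin share. Figures were drawn with matplotlib 3.10.9. The tests and the fragment recovery were tested on simulated data. With the median residual SD of the genes tested (0.451 on the log2 scale), limma recovered 26.9% of simulated 2-fold changes and 100% of 4-fold changes. A gene that did not pass can therefore still differ 2-fold. Members and gene lists were chosen with earlier results of these data known. Named were the 10 members, 17 fixed genes, the most abundant gene and the 2 with the smallest p of each pathway list described, and the 5 genes most correlated with the members. Alternatives covered pseudocounts, filters, TPM, median-of-ratios and quantile scaling, haemoglobin left out or as a covariate, voom, array weights and left-out libraries. Promoters came from RefSeq GRCr8, another build than the authors' own.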

Additional observations from a re-analysis of the deposited data

Results flagged for a closer look

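Of 42 sets of 4 replicate values examined, 2 had a library whose gap to the others exceeded Dixon's 95% critical value for 4 samples, where about 1 in 20 would by chance. In saline replicate 3 the level of Herpud1 was 14.1% of Hspa5, while the other saline libraries lay between 17.6% and 18.2%. In saline replicate 4 haemoglobin genes made up 43.6% of the summed FPKM, while the other saline libraries lay between 4.58% and 6.58%.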

How the results depend on the processing

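Among 22 alternative fits, 0 of the 10 genes passed the adjusted threshold in any but the TPM scale, where 2 passed, and the median log2 fold change ranged from -0.95 on that scale to 0.057 with haemoglobin left out of the total. Those 2 genes passed as lower, as 27% of all genes did. At an unadjusted p under 0.05 there were 6 of the 10 genes with TPM, all lower, against 48.4% of all genes. With single libraries left out there were 0 to 1, namely Hspa5 without FeCl3 replicate 2, against 6.81% of all genes. Among 129 tested genes of the 8 further lists, 52 passed with TPM, all as lower, against the same 27%. With single libraries left out 0 to 1 of them passed, namely Sec61g without saline replicate 4, against 1.26% of all genes as higher. The direction turned with TPM for Xbp1 (-0.57), Sdf2l1 (-0.20) and Creld2 (-0.45). With haemoglobin left out of the total it turned for Hsp90b1 (0.0069), Dnajb9 (0.054), Dnajb11 (0.060), Dnajc3 (0.0049) and Pdia4 (0.27), and with haemoglobin as a covariate for Dnajc3 (0.20). Quantile normalization turned Dnajb9 (0.017) and Pdia4 (0.15), median-of-ratios scaling and voom turned Pdia4 (0.19 and 0.20), and array weights turned Sdf2l1 (-0.036). With single libraries left out, Xbp1 ranged from -0.19 to 0.53, Sdf2l1 from -0.13 to 0.70, Pdia4 from -0.18 to 0.087 and the log2 ratio of Herpud1 to Hspa5 from -0.13 to 0.18. Sdf2l1 was -0.0052 without saline replicates 1 and 4, and the ratio of Herpud1 was -0.23 with Hsp90b1 as the denominator. The cause of these changes was not tested. The 9 ratios gave 0 with an exact permutation p under 0.05 in each of 12 alternatives. Where libraries were left out, the smaller groups allow no exact permutation p under 0.05. Those alternatives could not have given another count and say nothing about it. No paired analysis was possible because the sample titles of the groups share fewer than 2 numbers. With 4 aortas a group, the spread between aortas limits the precision of all 10 genes more than depth does.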

Other observations

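The wider pathway that the deposited table names protein processing in the endoplasmic reticulum, a list chosen after seeing the data, held 149 tested genes beside the stress genes it contains. Of these, 3 had higher and 28 had lower values after FeCl3 at an unadjusted p under 0.05 in limma, against 4.42% and 12.2% of all genes tested, 0 passed the adjusted threshold, and the median log2 fold change was -0.34. In 23 of them (15.4%) every FeCl3 value was below every saline value, against 8.75% of all genes. After median-of-ratios scaling this count was 9 (6.04%, against 3.62% of all genes), and in 5 (3.36%, against 4.29%) every FeCl3 value was above every saline value.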
